A study of Homo sapiens with 4 samples.

Results

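The genes described here are the 62 of 19775 named genes on the array whose symbol starts with SLC1A, SLC3A, SLC6A, SLC7A, SLC36A, SLC38A or SLC43A, the families that hold most amino acid transporters of human cells. Only probe sets that the platform annotation gives to 1 gene were used, and each gene was represented by its brightest probe set, by the mean of log2(intensity + 16) over the arrays. Of the 62 genes, 56 encode carriers or their partner chains. The other 6 share only the letters of a transporter's name: the antisense RNAs SLC7A11-AS1, SLC38A2-AS1, SLC38A4-AS1, SLC6A12-AS1 and SLC7A14-AS1, and the opposite-strand gene SLC7A6OS. The label of amino acid transporters also covers carriers of other solutes, among them SLC6A8 for creatine, SLC6A6 for taurine, SLC6A3 for dopamine and SLC43A3 for purine nucleobases.

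All 4 samples were the Hodgkin lymphoma cell line KM-H2, in which the gene of the class II transactivator, CIITA, is fused to the transcript BX648577. The knockdown group (2 arrays) carried the lentiviral pGIPZ vector sh.FLJ27352, whose hairpin is aimed at the BX648577 part of the fusion, and the control group (2 arrays) was transduced with a non-silencing control. A single hairpin in a single line was used, and the labels do not say whether the replicates were separate transductions, so p-values measure the spread between these arrays, which may be technical. The comparison asks which transcripts differ once the fusion transcript is targeted.

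Amino acid carriers decide which amino acids a cell takes up, exchanges and releases from its lysosomes. The SLC7 light chains of the LAT and xCT type reach the cell surface only when bound to a heavy chain, SLC3A2 (CD98) or SLC3A1, while the cationic carriers of the same family work alone. When amino acids run short, uncharged tRNA activates the kinase EIF2AK4 (GCN2), translation of the factor ATF4 rises, and ATF4 with C/EBP partners switches on genes of amino acid synthesis and import, SLC7A11, SLC7A5, SLC3A2 and SLC38A2 being well known among them.

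Array means lay between 53.3 and 54.6 intensity units and medians between 8.12 and 9.28, with the lower medians on the knockdown arrays (8.37 and 8.12, against 9.17 and 9.28 on the control arrays). The probe set of PIERCE2, the gene for which FLJ27352 was an earlier name by general knowledge, read 621 and 590 on the knockdown arrays and 880 and 947 on the control arrays. CIITA read 60.6 and 53.6 on the knockdown arrays and 59.6 and 65.1 on the control arrays. Of 9 listed Hodgkin cell markers 7 passed the filter used for testing. TNFRSF8 (CD30), CD40, IRF4, FUT4 and FSCN1 read at least 73.9 on every array, TRAF1 46.5 to 55.9 and CCL17 12.4 to 18.0. IL13 lay below the filter, and CCL22 stood at 1.00, the floor of the deposited values, on every array. Among the listed T and NK cell genes other than CD3D, the highest value on any array was 14.01.

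By the more permissive of 2 fits, 3 transporters were lower in knockdown cells and none was called higher. These were SLC7A11, the cystine and glutamate exchanger, SLC38A2, a sodium-coupled carrier of small neutral amino acids, and SLC7A2, a carrier of arginine and lysine. SLC7A5 and SLC3A2, the partners that make up the leucine exchanger LAT1, passed neither fit. Tests ran over 12922 genes whose brightest probe set had a mean of at least 4.60 on the log2 scale (an intensity of 8.26), which kept 36 of the 62 genes and 33 of the 56 carriers. The limma common-prior fit, which assumes 1 prior variance for all genes, called 0 of the 36 at a Benjamini-Hochberg adjusted p under 0.05, against 0.0155% of all tested genes. At an unadjusted p under 0.05 that fit had 7 of the 36, against 14.1% of all tested genes. The limma intensity-trend fit, in which the prior variance follows brightness, called 3 of the 36 (8.33%), against 2.99% of all tested genes. All 3 were lower, against 1.40% of all tested genes called lower and 1.59% called higher. Over all genes that was 181 lower and 206 higher, and 128 lower and 484 higher once the arrays were centred on their medians, where 2 of the 3 transporter calls (SLC7A11 and SLC38A2) were kept. In a bulk sample, fewer cells with a transcript and less of it per cell cannot be told apart.

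SLC7A11 encodes xCT, the light chain that brings in cystine for glutathione synthesis in exchange for glutamate. Its brightest probe set read 26.9 and 30.6 on the knockdown arrays and 44.1 and 63.2 on the control arrays. Both knockdown arrays lay below both controls, and the controls differed from each other more than the knockdowns did. The means were 28.8 ± 2.64 in knockdown and 53.6 ± 13.6 in control (SD, n = 2 arrays each), so that knockdown cells had 53.6% of the control signal. The log2 fold change was -0.62, taken as the knockdown minus the control mean of log2(intensity + 16). The common-prior fit gave an SE of 0.15 and a 95% interval of -0.98 to -0.27. The intensity-trend fit passed the threshold (limma adjusted p = 0.0244), while the fit with 1 common prior did not (0.255). A second SLC7A11 probe set read 20.5 and 18.9 in knockdown and 34.7 and 49.4 in control, a log2 fold change of -0.69, and the third lay near the floor, at 4.64 in knockdown and 5.42 in control on average. The intensity-trend call was also lost without the filter and with the mean of the 3 probe sets (limma adjusted p = 0.101 and 0.129). Without control replicate 2, the brighter control, the log2 fold change was -0.42 and the adjusted p was 0.149. The antisense RNA SLC7A11-AS1 was dim, at 12.1 and 16.04 in knockdown and 13.3 and 7.91 in control, and the groups overlapped.

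The heavy chain SLC3A2, which escorts xCT and the LAT light chains to the surface, read 35.3 and 37.6 on the knockdown arrays and 40.1 and 37.5 on the control arrays. The groups overlapped, and the log2 fold change was -0.06, with a 95% interval of -0.30 to 0.18 in the common-prior fit (limma adjusted p = 0.813). That interval overlaps the one given for SLC7A11, and the difference between both genes was not tested. The other heavy chain, SLC3A1, which is known from kidney and intestine, stood below the filter at 4.58 in knockdown and 7.09 in control.

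SLC7A5 (LAT1) takes up leucine and other large neutral amino acids and is the light chain most often linked to growth of lymphoid cells. It read 211 and 232 on the knockdown arrays and 204 and 229 on the control arrays. Replicate 2 was the brighter array in both groups, and the groups overlapped. The log2 fold change was 0.03 with a 95% interval of -0.24 to 0.29 (limma common-prior adjusted p = 0.927). SLC7A5 has pseudogene copies on chromosome 16, and 6 of the 9 probe sets left out because they name several genes name one of them, so the signal of its 1 probe set may be shared.

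Among the other partners of SLC3A2, SLC7A6, which exchanges cationic for neutral amino acids, read 92.8 and 77.7 in knockdown and 84.6 and 79.5 in control, and all 3 of its probe sets above the filter lay slightly above 0 (log2 fold changes 0.04 to 0.15). The related SLC7A7 was dim, at 16.02 and 7.64 in knockdown and 13.4 and 19.8 in control. SLC7A8 (LAT2) read 10.5 and 14.1 in knockdown and 19.7 and 12.4 in control, and its next probe set had the other sign, 0.10. SLC7A10 was below the filter. Of these 6 light chains 5 were tested, and SLC7A11 alone passed the intensity-trend fit. SLC7A9, the light chain that pairs with SLC3A1 in the kidney, read 10.6 and 8.15 in knockdown and 13.8 and 12.8 in control (log2 fold change -0.21, past neither fit).

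The cationic carriers, which import arginine, lysine and ornithine, had 2 members above the filter. SLC7A2 (CAT-2) read 165 and 178 on the knockdown arrays and 212 and 232 on the control arrays. The groups did not overlap, and the means were 172 ± 9.06 in knockdown and 222 ± 14.7 in control (SD, n = 2 arrays each). The log2 fold change was -0.34 (SE 0.11 in the common-prior fit and 0.086 in the intensity-trend fit). The difference passed the intensity-trend fit (limma adjusted p = 0.0396) and not the common-prior fit (0.277). Its other probe sets were near the floor, at 8.43 and 7.18 in knockdown and 8.27 and 3.42 in control, so a single probe set carries this difference. The intensity-trend call was lost without the filter (limma adjusted p = 0.0930), with the mean of the probe sets (log2 fold change -0.03, 0.926) and on centring the arrays on their medians (0.0642). It was lost too without knockdown replicate 1, knockdown replicate 2 or control replicate 2 (0.203, 0.0778 and 0.162). SLC7A1 (CAT-1), the general arginine carrier, read 151 and 174 in knockdown and 178 and 200.5 in control. The groups did not overlap, but the log2 fold change of -0.20 (95% interval -0.48 to 0.08 in the common-prior fit) passed neither fit. The second SLC7A1 probe set gave -0.02. SLC7A3, SLC7A4 and SLC7A14 were below the filter.

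**Figure D1:**
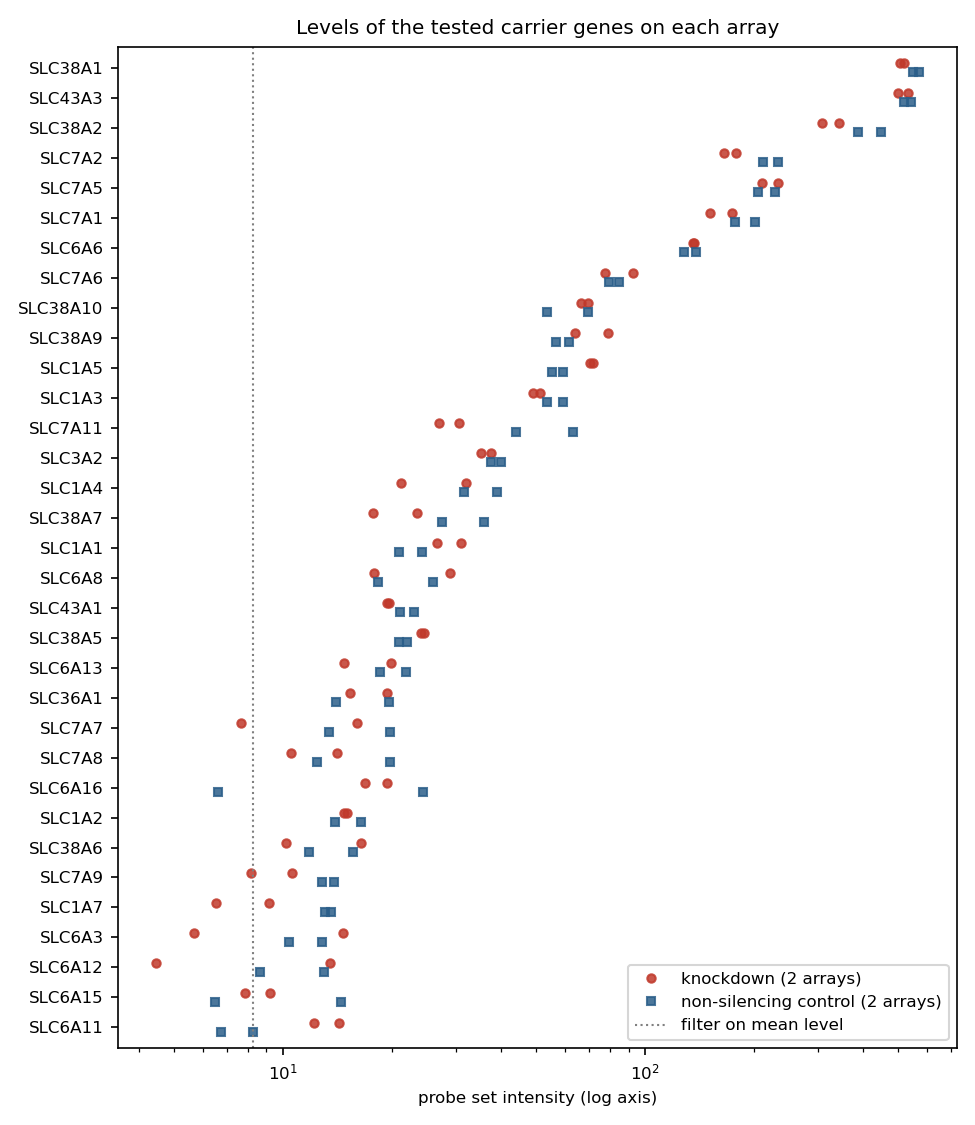
Intensity of the brightest probe set of each of the 33 tested carrier genes on the 2 knockdown arrays (circles) and the 2 control arrays (squares), on a log axis, with the filter at 8.26 dotted. Genes are sorted by their control mean for display only, since brightness differs between probe sets for reasons other than transcript number. Both circles lie left of both squares for 10 of the 33 carriers, SLC7A11, SLC38A2 and SLC7A2 among them. The same holds for 24.5% of all tested genes.

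The SLC38 family holds sodium-coupled carriers of glutamine, alanine and related amino acids, with some members on lysosomes. SLC38A2 (SNAT2), which cells are known to induce on amino acid shortage, read 308 and 343 on the knockdown arrays and 388 and 450 on the control arrays at its brightest probe set. The groups did not overlap, with means of 325 ± 24.9 in knockdown and 419 ± 43.7 in control (SD, n = 2 arrays each). The log2 fold change was -0.35 (SE 0.12 in the common-prior fit and 0.083 in the intensity-trend fit). This difference passed the intensity-trend fit (limma adjusted p = 0.0319) and not the common-prior fit (0.294). The other SLC38A2 probe sets did not show it. The second read 257 and 265 in knockdown and 236 and 283 in control (log2 fold change 0.01), and the third 239 and 266 in knockdown and 247 and 282 in control (-0.06). The first and the third of these are of the x_at type, whose probes can match unrelated transcripts. Whether such matches add to the signal of either one was not tested. The mean over all 3 gave -0.13 (limma intensity-trend adjusted p = 0.543). The call was also lost without the filter (0.0956), without knockdown replicate 1 (0.135) and without control replicate 2 (0.186).

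SLC38A1 (SNAT1), a glutamine importer, read 519 and 507 in knockdown and 570 and 549 in control. The groups did not overlap, yet the log2 fold change of -0.12 passed neither fit and other probe sets gave -0.05 and 0.13. SLC38A7, a lysosomal carrier that releases glutamine, read 23.5 and 17.7 in knockdown and 27.5 and 35.8 in control. Its log2 fold change of -0.38 was the next lowest after that of SLC7A11 among the tested members, but passed neither fit (limma adjusted p = 0.299 and 0.180 in the common-prior and intensity-trend fits). Its second probe set gave -0.13 with no overlap.

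SLC38A9, the lysosomal arginine sensor that signals to mTORC1, read 78.9 and 64.1 in knockdown and 61.7 and 56.7 in control (log2 fold change 0.21, past neither fit). SLC38A10 overlapped between the groups, with 69.4 and 66.6 in knockdown and 53.7 and 69.4 in control. SLC38A5, a carrier of glutamine and histidine, read 24.5 and 24.1 in knockdown and 20.9 and 21.9 in control, without overlap (0.11, past neither fit). SLC38A6 and SLC38A2-AS1 were dim and overlapped, and SLC38A3, SLC38A4, SLC38A11 and SLC38A12 lay below the filter.

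**Figure D2:**
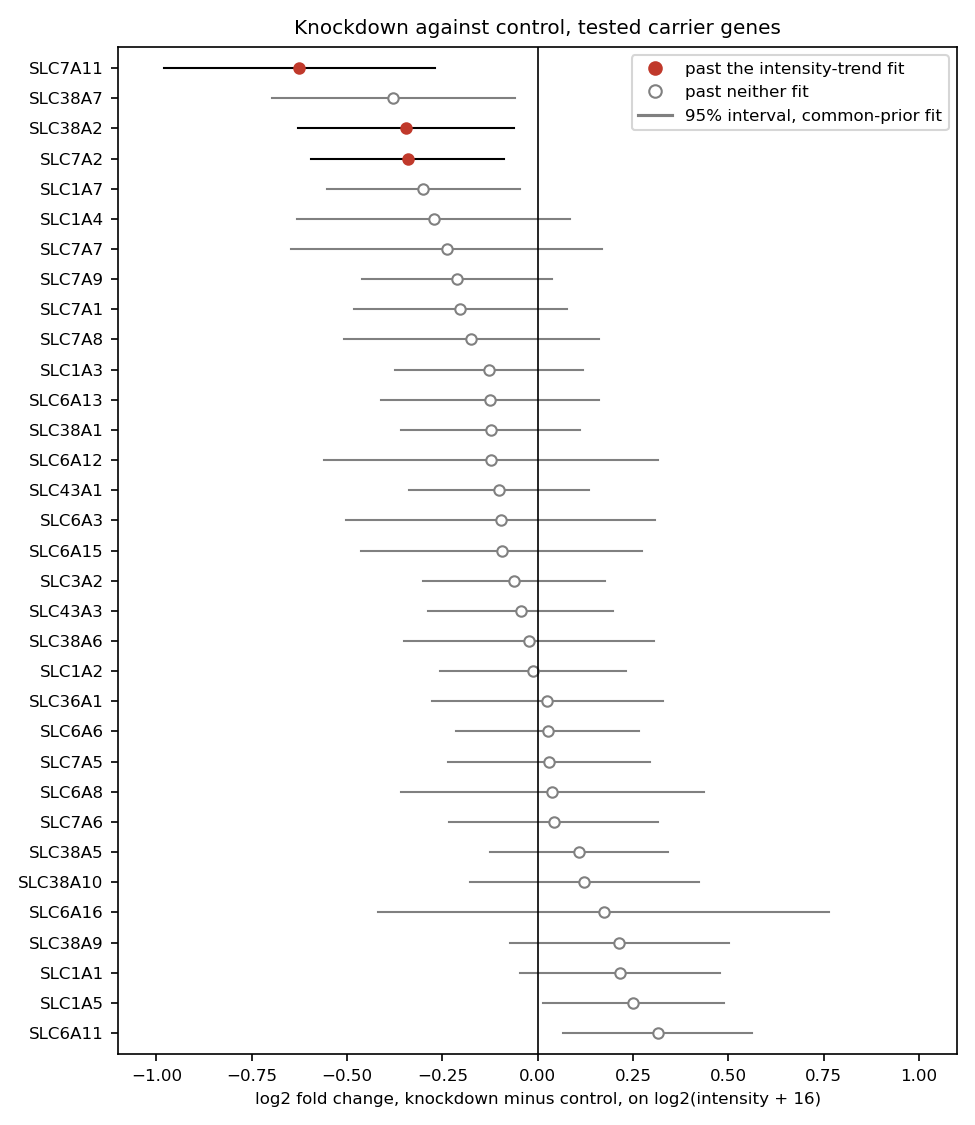
Log2 fold change, knockdown minus control, of the 33 tested carrier genes, with the 95% interval of the common-prior fit as a line. Filled points (SLC7A11, SLC38A2 and SLC7A2) passed the intensity-trend fit, and open points passed neither fit. The lowest value is -0.62 for SLC7A11. SLC1A7 and SLC6A11 had 1 group mean under the filter intensity and were tested only through the other group.

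The SLC1 family comprises the glutamate carriers of the EAAT type and the neutral exchangers ASCT1 and ASCT2. SLC1A5 (ASCT2), a main route of glutamine entry in proliferating cells, read 70.3 and 71.9 on the knockdown arrays and 59.2 and 55.3 on the control arrays. Both knockdown arrays were higher, with a log2 fold change of 0.25 (SE 0.10 in the common-prior fit). Neither limma fit passed (common-prior adjusted p = 0.336, intensity-trend 0.237). SLC1A4 (ASCT1), an exchanger of serine and alanine, read 21.2 and 32.1 in knockdown and 31.6 and 38.9 in control, a log2 fold change of -0.27 past neither fit. All 5 of its probe sets lay above the filter and below 0, from -0.44 to -0.11, and 3 of them had no overlap between the groups. Probe sets of 1 gene share the same RNA and are not replicates. The one with the lowest fold change, an x_at probe set with 23.0 and 22.2 in knockdown and 29.4 and 44.3 in control, passed neither fit (limma intensity-trend adjusted p = 0.132 over all probe sets).

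Of the glutamate carriers, SLC1A3 (EAAT1) read 51.4 and 49.1 in knockdown and 59.3 and 53.5 in control (-0.13), and SLC1A1 (EAAT3), which also carries cysteine, 26.6 and 31.0 in knockdown and 20.9 and 24.2 in control (0.22). Neither overlapped between the groups and neither passed a fit. SLC1A7, a glutamate carrier of the retina, was dim at 9.15 and 6.55 in knockdown and 13.1 and 13.5 in control (-0.30, past neither fit), and was tested only through its control values. SLC1A2 (EAAT2) overlapped, at 15.1 and 14.7 in knockdown and 16.4 and 13.9 in control. SLC1A6 was below the filter.

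The SLC6 family, mostly carriers of neurotransmitters and related solutes, had 8 of 18 members above the filter, and none was called. The taurine carrier SLC6A6 was the only one above an intensity of 100, at 136 and 135 in knockdown and 138 and 128 in control (log2 fold change 0.03). Its second probe set gave -0.28, without overlap. The creatine carrier SLC6A8 read 17.8 and 28.9 in knockdown and 18.3 and 26.0 in control, at an x_at probe set, and its level is uncertain because the near-identical pseudogene SLC6A10P can share its probes. SLC6A11, a GABA carrier, read 12.2 and 14.3 in knockdown and 8.28 and 6.72 in control (log2 fold change 0.31, past neither fit). Its control mean lay under the filter intensity, so it was tested only through its knockdown values, and its place among the tested genes follows from the filter. A second SLC6A11 probe set, below the filter, read 11.9 and 10.1 in knockdown and 3.29 and 2.51 in control. SLC6A16 read 16.8 and 19.4 in knockdown and 6.62 and 24.4 in control. Its gap between the controls, 0.84 on the log2 scale, compares with a median gap of 0.21 over the 12 tested carriers with a control mean up to 20. SLC6A13, SLC6A12, SLC6A3 and SLC6A15 had group means of 8.53 to 20.2 and overlapped.

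The proton-coupled lysosomal carrier SLC36A1 (PAT1) read 15.3 and 19.4 in knockdown and 14.04 and 19.6 in control. Its second probe set read 7.39 and 6.15 in knockdown and 15.9 and 11.1 in control (-0.37, past neither fit), and SLC36A4 was below the filter. SLC43A3 was bright at 532 and 498 in knockdown and 519 and 544 in control (-0.04), while its second probe set read 273 and 254 in knockdown and 230 and 229 in control (0.19, past neither fit). SLC43A1 (LAT3), a carrier of branched-chain amino acids, read 19.6 and 19.3 in knockdown and 21.1 and 23.0 in control (-0.10), and SLC43A2 was below the filter. SLC7A6OS overlapped at 27.0 and 42.9 in knockdown and 39.0 and 38.1 in control.

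Taking brightness alone, 7 carriers had a control mean above 100, which were SLC38A1, SLC43A3, SLC38A2, SLC7A2, SLC7A5, SLC7A1 and SLC6A6. Another 14 lay between 20 and 100, and 12 lay above the filter but at 20 or less. The 23 carriers below the filter had no group mean above 9.93 and no array above 14.6, close to the 14.01 that the T and NK cell genes other than CD3D reached, so values this low give no usable level. Among them were the glycine carriers SLC6A5 and SLC6A9, the monoamine carriers SLC6A2 and SLC6A4, the proline carrier SLC6A7, and SLC6A14, SLC6A17, SLC6A18, SLC6A19, SLC6A20 and SLC7A13. Tested carriers could be as dim, with every array of SLC1A7, SLC6A12 and SLC7A9 below 14.01. Detection calls were not among the values used here.

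Over the 36 tested genes, 23 lay below 0 and 13 above, with a median log2 fold change of -0.10, against -0.01 over all tested genes. Both knockdown arrays lay below both controls for 10 genes and above them for 5, which is 41.7% of the 36. Over all tested genes the share without overlap was 47.3%, so with this filter the share among the transporters was not above the background. The group means differed by more than either pair of replicates did for 14 of the 36, against 34.1% of all tested genes. Among the 12 tested carriers with a control mean up to 20, 9 lay below 0, against 57.4% of all tested genes of that brightness, and the knockdown arrays also had the lower array medians given above. After centring the arrays on their medians, 20 of the 36 transporter genes lay below 0 with a median of -0.038, against a median of 0.05 over all tested genes. Centring shifts the fold changes of all genes by the same amount. With the same genes tested it could not change the distance between both medians.

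Agreement between probe sets was limited. Of 14 genes with more than 1 probe set above the filter, 5 had one sign at all of them, with SLC7A11, SLC1A4, SLC38A7 and SLC7A1 lower and SLC7A6 higher, and 9 had both signs. With every probe set tested on its own, the intensity-trend fit called 4 of the 60 probe sets of transporter genes above the filter, against 2.34% of all 22639 one-gene probe sets tested. They were the 2 brighter ones of SLC7A11 and the brightest of SLC38A2 and SLC7A2 (limma adjusted p = 0.0281, 0.0198, 0.0362 and 0.0458).

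**Figure D3:**
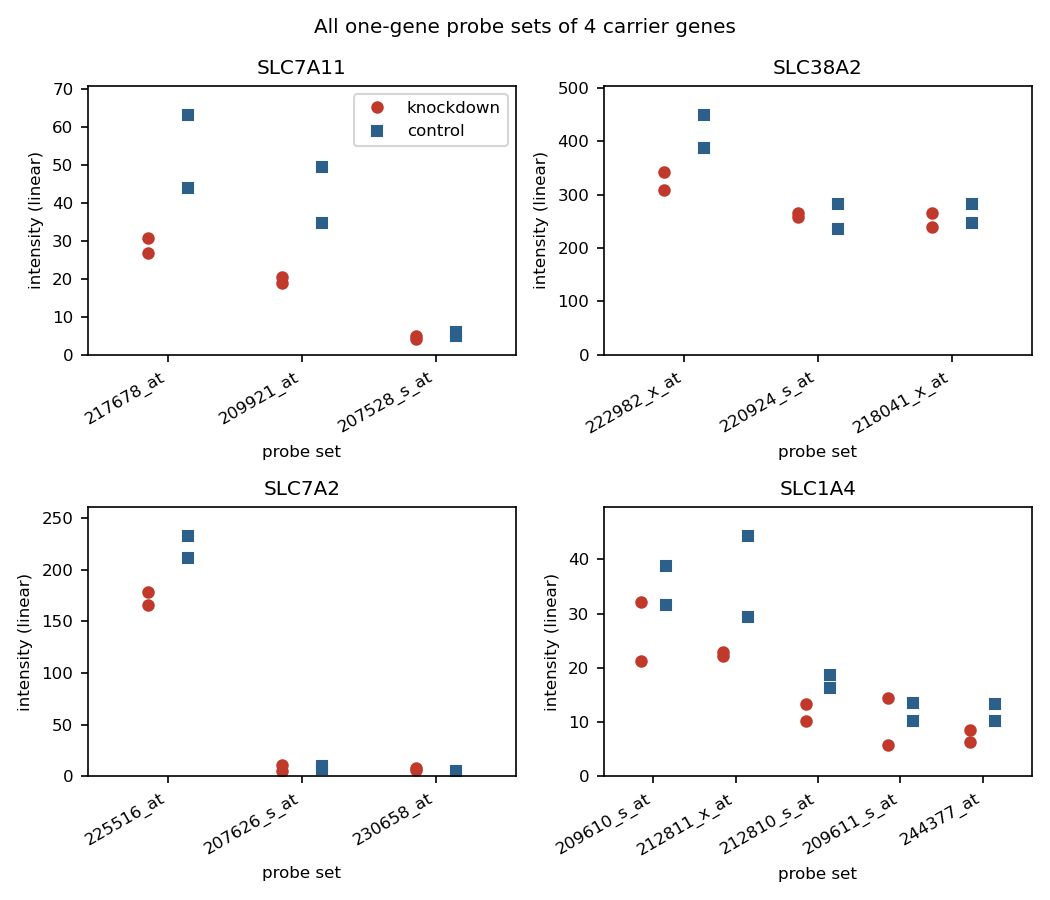
Intensity on a linear axis at every one-gene probe set of SLC7A11, SLC38A2, SLC7A2 and SLC1A4, with the 2 knockdown arrays as circles and the 2 control arrays as squares. The 2 brighter SLC7A11 probe sets separate the groups, only the first of 3 does so for SLC38A2, and the SLC7A2 difference rests on 1 probe set.

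Amino acid response genes other than transporters were set beside them because ATF4 acts on several of these carriers. Of 30 listed genes 24 were tested, 0 were called by the common-prior fit, and 2 were called lower and 0 higher by the intensity-trend fit. Over all tested genes the intensity-trend fit called 1.40% lower and 1.59% higher. The median log2 fold change was -0.07, with 15 of the 24 below 0, against 52.5% of all tested genes. The factor ATF4 itself read 537 and 450 in knockdown and 647 and 784 in control (-0.52, limma intensity-trend adjusted p = 0.00482). Asparagine synthetase, ASNS, read 421 and 382 in knockdown and 526 and 486 in control (-0.32, limma intensity-trend adjusted p = 0.0262). Other targets did not pass. DDIT3 (CHOP) gave -0.27, the serine synthesis gene PSAT1 -0.32 and the leucine sensor SESN2 -0.27, where the groups overlapped for SESN2. The pseudokinase TRIB3 (0.29) and SHMT2 (0.18) were higher, both without overlap. Others lay near 0, among them ATF3 (0.01), PSPH (0.02) and CEBPB (-0.03).

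As with SLC7A11, control replicate 1 lay below control replicate 2 for ATF4, by 0.27 on the log2 scale. For SLC7A11 that gap was 0.40, for SLC38A2 0.21 and for SLC7A2 0.13. Control replicate 1 was the lower control for 19 of the 33 tested carriers. These were 14 of the 21 with a control mean above 20 and 5 of the 12 with a control mean up to 20. The part of this difference between the controls in the group difference was not tested beyond leaving out single arrays.

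**Figure D4:**
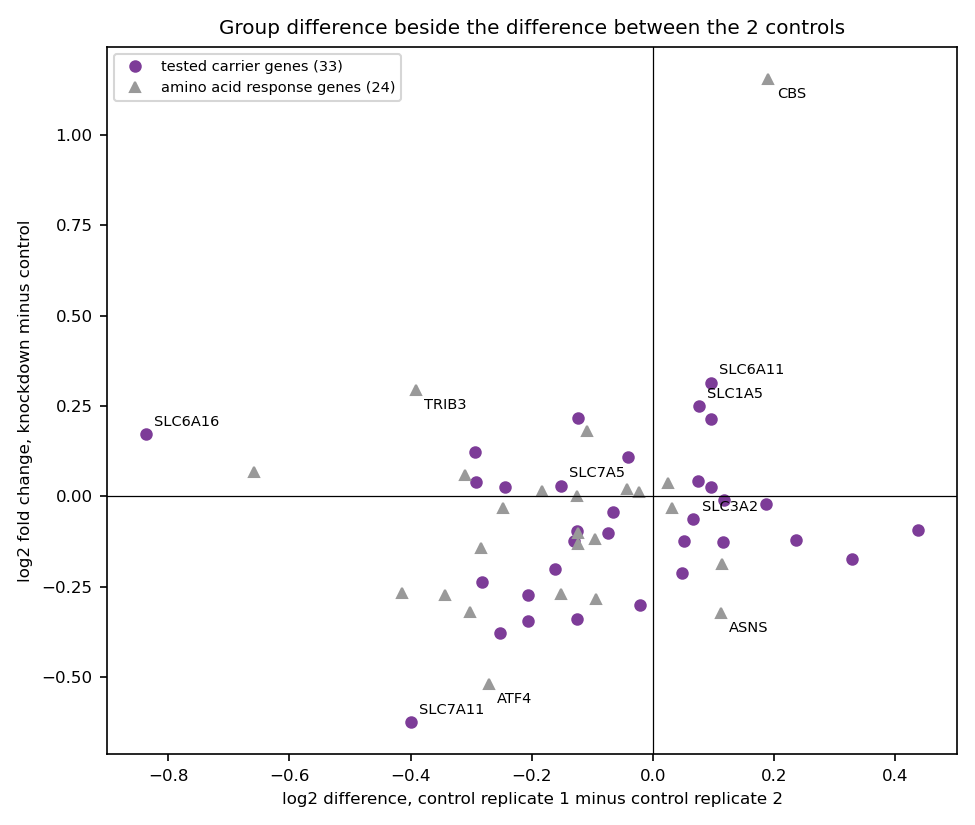
Log2 fold change, knockdown minus control (vertical axis), beside the log2 difference between the 2 control arrays, replicate 1 minus replicate 2 (horizontal axis), for the 33 tested carriers (circles) and the 24 tested amino acid response genes (triangles). SLC7A11 (-0.62) and ATF4 (-0.52) have the lowest fold changes shown, and for both control replicate 1 lay below control replicate 2.

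Glutathione synthesis uses the cysteine that SLC7A11 brings in, and its genes and SLC7A11 are targets of the factor NRF2 (NFE2L2). Of 17 listed genes 15 were tested, 0 were called lower and 1 higher by the intensity-trend fit, and 0 by the common-prior fit. Over all tested genes the intensity-trend fit called 2.99%, the share to set beside this list and those that follow. The median over the 15 genes was -0.10, with 9 below 0 and 6 above. The 1 gene of this list called was PGD, of the pentose phosphate pathway, at 119 and 130 in knockdown and 75.01 and 79.6 in control (0.59, limma intensity-trend adjusted p = 0.00416). GCLM, a subunit of the first enzyme of glutathione synthesis, read 219 and 197 in knockdown and 237 and 274 in control (-0.28, past neither fit). NFE2L2 read 226 and 218 in knockdown and 259 and 274 in control (-0.25, past neither fit). HMOX1 (-0.41) was lower too, while KEAP1 (0.27) and GPX4 (0.18) were higher, each without overlap and past neither fit. Of 13 genes of glutamine and serine use 10 were tested and 1 was called, GLUL, glutamine synthetase, which was higher at 27.5 and 29.7 in knockdown and 12.2 and 14.8 in control (0.60, limma intensity-trend adjusted p = 0.0349). Its 3 other probe sets lay below the filter and did not show this. Lysosomal sensing and mTORC1 genes had 0 of 21 tested members called, with a median of 0.04, and the GTPase gene RRAGD (0.34) and the arginine sensor relative CASTOR2 (0.36) had the largest moderated t. CASTOR2 read 11.8 and 11.2 in knockdown and 3.70 and 7.22 in control, and was tested only through its knockdown values. Amino acid carriers outside the symbol rule had 0 of 11 tested members called, with a median of -0.03, where SLC15A4 (-0.21) and SLC25A13 (0.27) had the largest moderated t.

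Single genes among the markers of other cell types passed the intensity-trend fit. CD3D, a gene of the T cell CD3 complex, read 253 and 225 in knockdown and 194 and 183 in control. Its log2 fold change was 0.32 (limma intensity-trend adjusted p = 0.0498). The summed T and NK cell list was 253 to 290 in knockdown and 211 to 222 in control. Without CD3D the other 6 genes summed to 36.9 and 27.9 in knockdown and 28.7 and 28.1 in control, which overlap. COL1A2, a fibroblast collagen, read 37.3 and 32.9 in knockdown and 56.4 and 53.3 in control (-0.47, limma intensity-trend adjusted p = 0.0405), at 1 of its 2 probe sets above the filter, and the summed epithelial and fibroblast list was 132 to 149 in knockdown and 166 to 198.5 in control. Without COL1A1 and COL1A2 the other 8 genes summed to 71.2 and 54.4 in knockdown and 62.8 and 83.0 in control, which overlap. Only 1 of 7 T and NK cell genes and 5 of 10 epithelial and fibroblast genes passed the filter. B cell genes (0 of 6 tested called) summed to 107 on both knockdown arrays and 110 to 124 on the control arrays. Monocyte genes (0 of 2 tested called) summed to 121 to 122 in knockdown and 120 to 123 in control. Of the Hodgkin cell markers, FUT4 (CD15) was higher (0.39, limma intensity-trend adjusted p = 0.0406) and the actin bundling gene FSCN1 lower (-0.32, 0.0162) at their brightest probe sets. A second FSCN1 probe set above the filter had the other sign without overlap, at 38.1 and 40.4 in knockdown and 34.1 and 21.8 in control (0.35). The part of these markers in the transporter differences was not tested.

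Promoter windows were searched for letters that factors of the amino acid and oxidative stress responses are known to bind. RefSeq windows of GRCh38.p14, from 250 bases before to 50 bases after the annotated start, matched 47 of the 62 genes and 27 of the 36 tested ones, with SLC7A11 not among them. They were searched on both strands for the core of the C/EBP-ATF response element, TGATGNAA, and for the antioxidant response element that NRF2 binds, TGACNNNGC. Windows are printed for SLC38A2, called lower by the intensity-trend fit, and for the LAT1 partners SLC7A5 and SLC3A2, called by neither. None is printed for SLC7A11 or SLC7A2, which the intensity-trend fit also called lower. Matches are in capitals, on the gene's strand, 5′ to 3′. The windows are chr12:46372724-46373023 (minus strand) for SLC38A2, chr16:87869458-87869757 (minus strand) for SLC7A5 and chr11:62881449-62881748 (plus strand) for SLC3A2.
SLC38A2: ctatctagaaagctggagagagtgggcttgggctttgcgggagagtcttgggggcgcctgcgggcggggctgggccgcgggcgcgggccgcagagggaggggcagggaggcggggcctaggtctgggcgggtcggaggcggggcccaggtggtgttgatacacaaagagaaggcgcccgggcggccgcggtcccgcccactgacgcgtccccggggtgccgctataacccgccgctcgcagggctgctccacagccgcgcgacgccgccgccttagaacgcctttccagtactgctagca
SLC7A5: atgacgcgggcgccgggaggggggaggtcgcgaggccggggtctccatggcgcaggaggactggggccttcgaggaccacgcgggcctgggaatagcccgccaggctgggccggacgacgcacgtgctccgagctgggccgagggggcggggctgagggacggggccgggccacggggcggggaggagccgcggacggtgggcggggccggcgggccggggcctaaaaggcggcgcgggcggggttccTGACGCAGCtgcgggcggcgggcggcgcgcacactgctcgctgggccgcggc
SLC3A2: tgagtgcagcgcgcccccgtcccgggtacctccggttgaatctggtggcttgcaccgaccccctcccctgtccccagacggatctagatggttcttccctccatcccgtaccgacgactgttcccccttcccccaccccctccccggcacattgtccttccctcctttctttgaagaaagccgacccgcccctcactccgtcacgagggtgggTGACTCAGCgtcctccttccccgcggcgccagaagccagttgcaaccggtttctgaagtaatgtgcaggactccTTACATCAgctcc

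The SLC3A2 window holds TGACTCAGC, starting 37 bases before the annotated start, and TTACATCA, the response element read on the other strand, starting 37 bases after it. The SLC7A5 window holds TGACGCAGC across the start, and the SLC38A2 window holds neither set of letters. Among the other windows, TGATGNAA was found in those of SLC1A3, SLC38A1 and SLC7A1, and TGACNNNGC in those of SLC7A1, SLC7A6, SLC7A7 and SLC38A2-AS1. That makes 4 of 47 windows (8.51%) with TGATGNAA, against 3.62% of all 35116 windows, and 6 of 47 (12.8%) with TGACNNNGC, against 13.3% of all windows. No match overlapped one of the other motif. A match describes letters and is no evidence of binding. A window without a match, such as that of SLC38A2, says nothing about sequence outside the window, which was not searched.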

How the data were processed

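Transcripts of KM-H2 cells were measured on 4 single-colour arrays, 2 knockdown and 2 control, labelled by the 1-cycle Affymetrix protocol, per the labels. The authors deposited linear probe set intensities for 54613 probe sets. The step that turned scans into intensities is not stated in the labels. Platform annotation gave 1 gene to 41091 probe sets, several to 1801 and none to 11721. Values became log2(intensity + 16), which understates changes of dim genes. Genes whose brightest probe set had a mean under the median over all probe sets were left out. Knockdown minus control was fitted with limma 3.58.1 (R 4.3.3), with a common and with an intensity-trend prior, and adjusted by Benjamini-Hochberg over 12922 genes at 0.05. Both fits were tested on simulated data. Promoter windows were searched with Python 3.11.15. Alternatives were pseudocounts, filters, normalizations, probe set means, robust priors, a replicate block and leaving out arrays. Only 2 arrays a group limit the precision. The genes named are the markers SLC7A11, SLC7A5 and SLC3A2, members called by either fit, the 10 brightest in control, and the 2 of largest moderated t per family. In the other lists they are the members called, and 2 by moderated t where none was. Others were chosen after their values were seen. Members and lists were chosen with earlier results of these data known.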

Additional observations from a re-analysis of the deposited data

How the results depend on the processing

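The common-prior fit called 0 of the transporter genes under 12 of 13 alternatives, including each array left out (0 to 0), and 3 with a pseudocount of 64, the same 3 genes as the intensity-trend fit, where SLC7A11 stood at a log2 fold change of -0.34 (limma adjusted p = 0.0254). The intensity-trend fit called 3 in the report, all lower. It called 0 without a filter on dim probe sets and 0 when probe sets were averaged by gene, where SLC7A11 stood at -0.62 (adjusted p = 0.101) and -0.46 (0.129), and 0 to 3 with single arrays left out. Without knockdown replicate 1 only SLC7A11 was called, and without control replicate 2 none. With single arrays left out SLC7A11 ranged from -0.82 to -0.42, SLC3A2 from -0.096 to -0.029 and SLC7A5 from -0.047 to 0.11. The sign of SLC7A5 turned without knockdown replicate 2 (-0.035) and without control replicate 1 (-0.047). Median centring left 2 calls, and moved the calls over all genes to 128 lower and 484 higher, against 181 and 206 in the report.

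The median over tested members, -0.096 against -0.01 over all tested genes in the report, was -0.14 with a pseudocount of 1, -0.037 with 64, -0.059 with quantile normalization, -0.038 with median centring (0.05 over all genes, a shift they share), -0.044 with probe set means and -0.096 to -0.045 with single arrays left out. Apart from centring, the median over all tested genes lay between -0.025 and 0.012. With the filter at the upper quartile, 10 of 18 members had no overlap (55.6%, against 52.7% of all genes). With quantile normalization it was 17 of 36 (47.2%, against 47.2% of all genes). Members without overlap numbered 23 of 62 without a filter (37.1%, against 43.2% of all genes) and 25 to 27 with single arrays left out (65.8% to 71.1%, against 69.9% to 76.7% of all genes), where fewer arrays make overlap rarer. Same-numbered arrays of both groups did not deviate together over tested genes (r = -0.0067). This does not settle whether the replicate numbers pair the arrays, which the labels do not say. With the replicate block the fits called 0 and 3 members, the same 3 genes, and 1010 genes in all with the intensity trend against 387 without. The causes of these changes were not tested beyond what is stated. SLC3A2 kept its sign and passed neither fit under all 13 alternatives. Signal near the floor limits the 23 carriers below the filter and the dimmest tested ones, and 2 arrays a group limit all tests.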

Other observations

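CBS, the first enzyme of the route from homocysteine to cysteine, was chosen after its values were seen. Its brightest probe set read 2.23 and 94.0 on the knockdown arrays and 5.49 and 2.83 on the control arrays, so 1 knockdown array alone carried the signal. Its log2 fold change of 1.15 passed neither fit (limma adjusted p = 0.497 in the common-prior fit and 0.199 in the intensity-trend fit).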
